A study of Mus musculus with 2 samples.

Results

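The 7 genes described here encode complement proteins: C1qa, C1qb, C1qc, C3, C4b, Cfb and Serping1. They were listed by name, not by a threshold on their coverage, and all 7 were found among 21924 protein-coding genes of the mouse annotation (GENCODE release M21 on mm10). The mark mapped was trimethylation of histone H3 at lysine 36 (H3K36me3), by chromatin immunoprecipitation and sequencing in unstimulated macrophages grown from bone marrow of C57BL/6J mice. There was 1 group, with no other genotype, treatment or time, and it held 2 biological replicates. The labels give both the same donor record, and any spread between them may therefore be technical. The sex and age of the animals were not collected, and the libraries were made from 10 ng of DNA each, at a fragment size of 350 to 480 bp. With 1 group, no test between conditions could be made, and the values below describe genes within these cells.

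Complement is a cascade of plasma proteins that tags microbes and dying cells for uptake. C1q, built from 3 chains, binds immune complexes and cell debris and starts the classical pathway, and tissue macrophages are its best known source. C4 and C3 are then cleaved in turn, with factor B forming the alternative pathway convertase on C3b, and C1 inhibitor, the product of Serping1, shutting off the proteases that ride on C1q. The liver makes most of the circulating C3, C4, factor B and C1 inhibitor, though macrophages can make these proteins too. H3K36me3 is laid down behind elongating RNA polymerase II and marks transcribed gene bodies, most strongly toward their 3′ ends. A gene with no peak was undetected, not shown to be silent.

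The C1q genes are compared first at the same structural place in each. C1qa, C1qb and C1qc lie next to each other on the minus strand of chromosome 4 and each has 3 exons in the annotation. The first 150 bases of exon 3, coding in all 3 genes and part of the collagen-like repeat of the proteins, are shown 5′ to 3′ on the gene's strand from the mm10 reference (GRCm38.p6). Capitals mark bases under a peak of replicate 2. The windows are chr4:136896579-136896728 for C1qa, chr4:136880720-136880869 for C1qb and chr4:136890450-136890599 for C1qc.
C1qa: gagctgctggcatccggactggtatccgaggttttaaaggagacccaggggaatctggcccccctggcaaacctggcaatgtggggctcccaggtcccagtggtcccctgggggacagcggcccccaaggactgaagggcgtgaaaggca
C1qb: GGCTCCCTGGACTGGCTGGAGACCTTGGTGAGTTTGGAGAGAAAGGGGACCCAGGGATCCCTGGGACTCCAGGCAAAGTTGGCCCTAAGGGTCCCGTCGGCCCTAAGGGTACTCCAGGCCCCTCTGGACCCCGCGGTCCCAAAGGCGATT
C1qc: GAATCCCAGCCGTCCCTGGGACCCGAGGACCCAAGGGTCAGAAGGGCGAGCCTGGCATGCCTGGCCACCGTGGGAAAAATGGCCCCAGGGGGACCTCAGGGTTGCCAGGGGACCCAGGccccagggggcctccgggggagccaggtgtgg
All 150 bases of the C1qb window lay under a peak in replicate 2 and also in replicate 1. In C1qc 118 bases did in replicate 2 and 0 in replicate 1, and in C1qa 0 did in either. The window flatters C1qc, whose peak ends inside it. Over the whole of exon 3, replicate 2 covered 14.8% in C1qc and 100% in C1qb. The GC content of the windows was 64% in C1qa, 64% in C1qb and 71.3% in C1qc.

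C1qb, which encodes the B chain of C1q, was the most widely covered of the 7 genes. Its body (chromosome 4, 136880129 to 136886187, 6.06 kb) was 34.9% under peaks in replicate 1 and 61.1% in replicate 2. It was 65.1% covered in the authors' pooled list, called on both replicates together, and 65.1% in their replicated list. Both replicates thus placed it above 20%, the share from which a gene is called marked here. The pooled and replicated lists did so too, but they derive from the same replicates and add no independent support. Genes of its size are seldom covered so widely: among 3628 coding genes of 5 to 10 kb, 2.48% were covered at least as much in replicate 1 and 4.27% in replicate 2.

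The mark on C1qb filled the 3′ part of the gene and left the 5′ part without peaks. In replicate 1 there were 2 peaks, at chr4:136879959-136880988 with an enrichment of 3.52 and at chr4:136881198-136882451 with an enrichment of 2.58, where enrichment is the authors' ratio over the background their caller used. In replicate 2 there were 3, of which the widest, at chr4:136879825-136882543, had an enrichment of 5.56, higher than 95.4% of the peaks in that list. The other 2 had enrichments of 3.08 and 3.47. Every base of the replicate 1 peaks lay under a replicate 2 peak. Exons 2 and 3 were wholly covered in both replicates and exon 1 was not covered in either. Intron 2 was covered over 83.4% in replicate 1 and wholly in replicate 2, and the long intron 1 over 3.31% and 40.5%. All of the coding sequence was therefore under peaks in each replicate, since exon 1 is untranslated. The peak edge nearest to the annotated start lay 3.74 kb into the gene in replicate 1 and 2.12 kb into it in replicate 2. At the other end, the peaks ran 170 bp beyond the gene in replicate 1 and 304 bp beyond it in replicate 2.

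C1qc, which encodes the C chain, was covered in 1 of the 4 lists. Its body (chromosome 4, 136889804 to 136893065, 3.26 kb) held no peak in replicate 1 and was 15.6% covered in replicate 2, with no peak in the pooled or the replicated list. The single peak, at chr4:136890482-136890991, was 510 bp long with an enrichment of 3.13, higher than 9.07% of the replicate 2 peaks. It spanned the end of intron 2 and the start of exon 3, seen as the capitals in the C1qc sequence above.

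C1qa, which encodes the A chain, had no peak in any of the 4 lists (chromosome 4, 136895917 to 136898803, 2.89 kb). The nearest peak lay 13.5 kb away in C1qb in replicate 1 and 4.92 kb away in C1qc in replicate 2. Both short C1q genes belong to a size range in which peaks are seldom called: among 2548 coding genes of 2 to 5 kb, 93.2% had no peak in replicate 1 and 81.3% none in replicate 2. Other short macrophage genes varied. The adaptor gene Tyrobp (3.83 kb) held no peak in either replicate, while Cd68 (1.94 kb) was 0% covered in replicate 1 and 43.7% in replicate 2.

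Read in the direction of transcription, the cluster starts with C1qa, followed by C1qc and then C1qb. Over its 18.7 kb, peaks covered 11.3% in replicate 1 and 22.6% in replicate 2. The 2.85 kb between C1qa and C1qc and the 3.62 kb between C1qc and C1qb held 0 peak bases in all 4 lists. Coverage of the gene bodies in that order was 0%, 0% and 34.9% in replicate 1 and 0%, 15.6% and 61.1% in replicate 2. Of the 31-base words of C1qa and of C1qc, 0% occurred at another place in the reference chromosomes, and of those of C1qb 7.66% did.

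**Figure D1:**
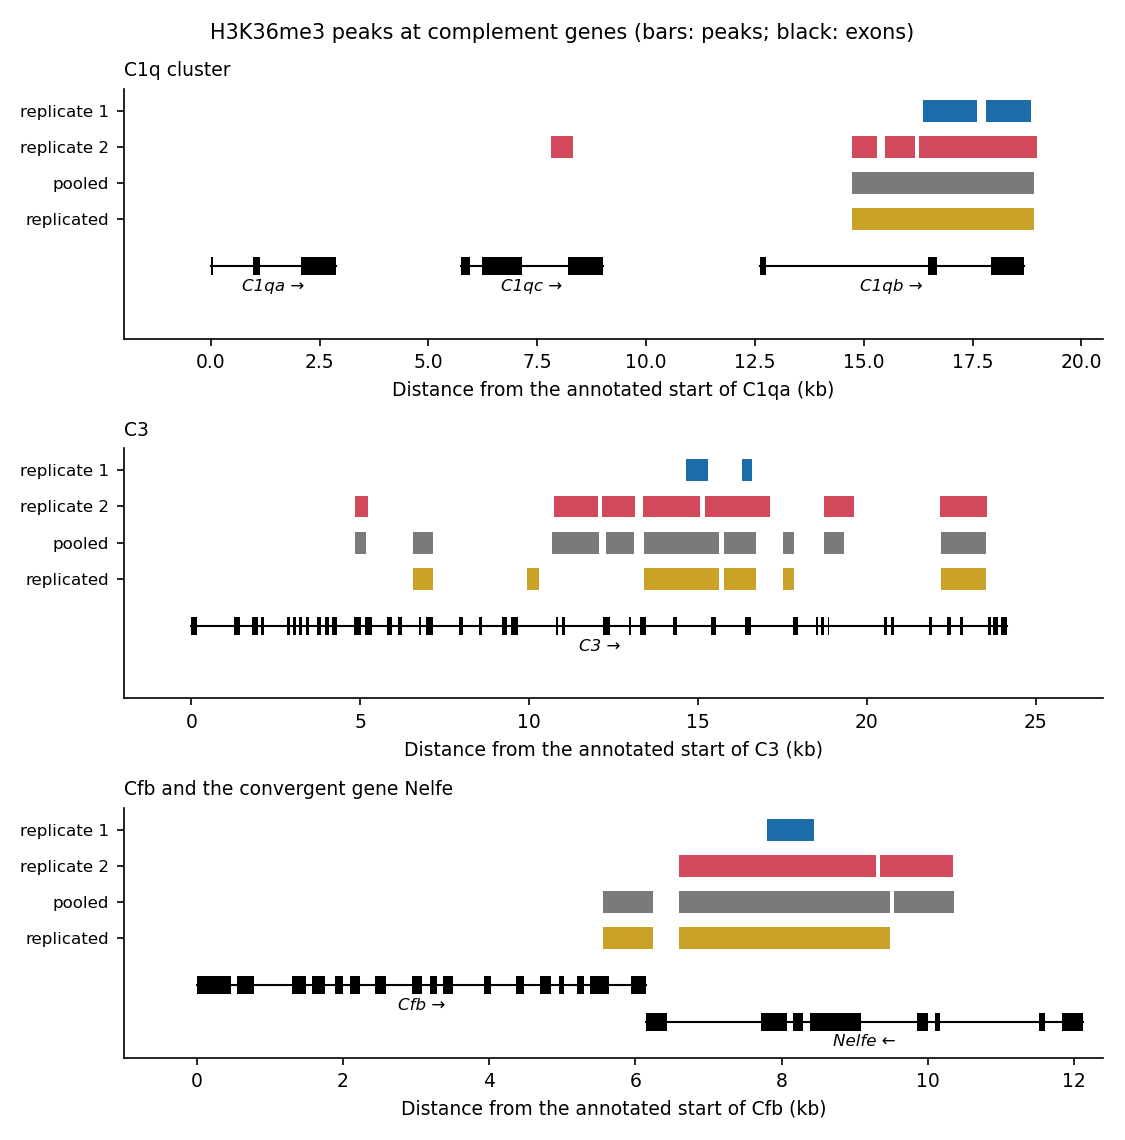
Peaks of the 4 lists (coloured bars) above the exons (black boxes) of the C1q cluster, C3, and Cfb with its convergent neighbour Nelfe, with the distance from the annotated start of C1qa, C3 or Cfb in kb on the x axis and arrows for the direction of transcription. C1qb carries peaks in every list over its 3′ part, C1qc in replicate 2 alone and C1qa in none, and the replicate peaks near Cfb lie in Nelfe.

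Of the 4 members whose plasma supply comes mainly from the liver, C3 was the only one with a peak inside the gene in either replicate. C3 encodes the central component of the cascade (chromosome 17, 57203970 to 57228136, 24.2 kb, 42 exons). It was 3.99% covered in replicate 1 and 35.5% in replicate 2. The authors' pooled list covered 35.3% of it and their replicated list 23.8%. Replicate 1 alone thus fell short of 20%, and the replicates differed here more than at most genes: replicate 2 covered 8.91 times as much of C3 as replicate 1, where the median ratio over 6304 coding genes with a peak in both was 2.75, and 6.11% of them had a ratio at least as large. At C1qb the ratio was 1.75.

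The C3 peaks were many and separate. Replicate 2 held 7, from 399 to 1905 bp long, and replicate 1 held 2, of 319 and 645 bp, of which the first lay wholly and the second to 75% under replicate 2 peaks. The most enriched, at chr17:57214984-57215960 in replicate 2, had a value of 4.86, above 85.0% of that list, and the replicate 1 peaks had 2.85 and 2.98. The 150 bases around the summit of that peak take in a whole exon, shown here on the gene's strand at chr17:57215061-57215210 with the 76 exon bases in capitals and intron in lower case.
C3: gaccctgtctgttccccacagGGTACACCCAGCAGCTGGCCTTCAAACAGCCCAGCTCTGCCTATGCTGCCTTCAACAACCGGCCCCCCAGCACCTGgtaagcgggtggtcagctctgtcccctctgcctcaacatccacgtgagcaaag
Exons of C3 were 27.9% covered in replicate 2 and introns 37.6%, and in replicate 1 the shares were 3.19% and 4.21%. The first 4.84 kb from the annotated start held no peak in replicate 2, and replicate 1 began at 14.7 kb. With the gene divided into 10 bins of equal length, coverage in replicate 2 was highest in bin 7, at 93.3%, which is also the bin that held the replicate 1 peaks, at 39.9%. Among 5149 coding genes of 20 to 50 kb, 34.7% were covered at least as much as C3 in replicate 1 and 21.7% in replicate 2, so a share like that of C3 was common at its size. Of the genes within 10 kb, Gpr108, 6.50 kb before the start of C3, was 32.9% covered in replicate 1 and 54.6% in replicate 2, and Tnfsf14, 9.79 kb past its end, had no peak.

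C4b, which encodes complement C4, held no peak in any list (chromosome 17, 34728380 to 34743882, 15.5 kb). The nearest peak lay 82.0 kb away in replicate 1 and 73.5 kb in replicate 2, and Tnxb, 8.56 kb away, had none either. Of 3999 coding genes of 10 to 20 kb, 64.4% had no peak in replicate 1 and 54.1% none in replicate 2. C4b has a near copy, C4a, on the same chromosome, and the bodies align over 14245 bases with an identity of 96.2% and a longest run without a difference of 357 bases. Of the 31-base words of C4b, 47.3% occurred elsewhere in the reference chromosomes, and 43.5% in C4a. With words of 100 bases the share elsewhere was 16.4%. The C4a record, which the annotation does not class as coding, held no peak in any list either. How the authors treated reads that match both copies is not given in the sources used here, and the part of shared sequence in the absence of peaks was not tested. The 90 gap-free coding bases in which the copies differ most, at chr17:34735430-34735519 in C4b and chr17:34816086-34816175 in C4a, are shown to give the extent of their likeness. Capitals mark the 14 bases that differ.
C4b: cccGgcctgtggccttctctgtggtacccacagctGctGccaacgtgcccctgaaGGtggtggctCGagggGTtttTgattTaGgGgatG
C4a: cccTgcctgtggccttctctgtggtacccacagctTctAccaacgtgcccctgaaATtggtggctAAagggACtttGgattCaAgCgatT

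Cfb, which encodes factor B, was bare in both replicates but not in the combined lists (chromosome 17, 34856374 to 34862518, 6.14 kb). It was 0% covered in replicate 1 and in replicate 2, and 9.62% in the pooled and the replicated list. The peak in those lists, at chr17:34856275-34856964, had an enrichment of 2.62 and covered 591 bp at the 3′ end of Cfb. It ran 99 bp past that end, into Nelfe, a gene of the negative elongation factor complex that is transcribed toward Cfb and ends 1 bp away. Skiv2l, 6.16 kb from Cfb on the far side of Nelfe, was 35.2% covered in replicate 1 and 83.5% in replicate 2. Nelfe itself was 10.9% covered in replicate 1 and 61.8% in replicate 2, and the replicate peak nearest to Cfb, which lay wholly inside Nelfe, stopped 1652 bp short of Cfb in replicate 1 and 452 bp short in replicate 2. To which of the convergent genes the combined peak belongs cannot be told apart from these lists. C2, the classical pathway relative of Cfb, ends 85 bp before its start and had no peak. Gm20547, an annotated record that spans Cfb and part of C2, was 0% covered in both replicates.

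Serping1, which encodes C1 inhibitor, held no peak in any list (chromosome 2, 84765387 to 84775444, 10.1 kb). No other coding gene lies within 10 kb of it, and the nearest peaks, 27.9 kb away in replicate 1 and 26.6 kb in replicate 2, were at Ube2l6. At 31 bases, 8.30% of its words occurred elsewhere in the reference chromosomes, and at 100 bases 0% did, so most of the gene is unique sequence.

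**Figure D2:**
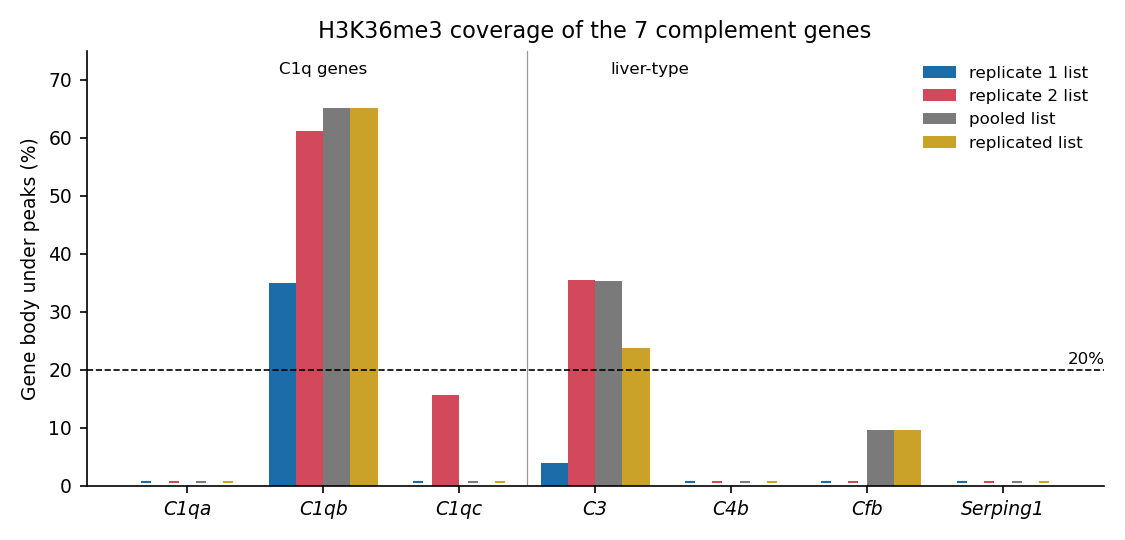
Percent of each gene body under peaks (y axis, from 0) for the 7 genes in the 4 peak lists (bars), with short dashes where a list had no peak and a dashed line at 20%. C1qb stands above 20% in every list, C3 in every list but replicate 1, and C1qa, C4b and Serping1 have no peak in any.

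Set against each other, the C1q genes and the liver-type members were not separated by their medians. The median covered share of the 3 C1q genes was 0% in replicate 1 and 15.6% in replicate 2, and that of the 4 liver-type members was 0% in both. The mean of the replicates was 7.82% for C1q and 0% for the liver-type members, a difference of 7.82 percentage points with an SD between replicates of 11.1 (n = 2). The median over all coding genes was likewise 0% in each replicate. In the pooled and the replicated list the order turned, with medians of 0% for C1q and 4.81% for the liver-type members, because the peak at the Cfb and Nelfe ends enters there and that of C1qc does not. The C1q medians are the values of C1qc, the middle gene of the 3, and both groups held members with no peak. By bases, where C1qb weighs most, peaks covered 17.3% of the summed C1q bodies in replicate 1 and 34.5% in replicate 2, against 1.73% and 15.4% of the summed liver-type bodies. No test was made, since genes are not replicates.

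By the 20% rule in both replicates, 1 of the 7 genes was called marked, C1qb, where 7.62% of all coding genes were. In replicate 1 alone it was again C1qb, against 7.64% of all coding genes, and in replicate 2 alone it was C1qb and C3, against 23.3%. A peak in both replicates was present in 2 of the 7, C1qb and C3, against 28.8% of all coding genes. Counts this small do not set the 7 genes apart from those shares. Among genes of the same size the called share was 2.51% from 2 to 5 kb, the range of C1qa and C1qc, and 7.47% from 5 to 10 kb, the range of C1qb and Cfb. It was 13.0% from 10 to 20 kb, the range of C4b and Serping1, and 11.9% from 20 to 50 kb, the range of C3. The C1qb call rested on modest peaks in replicate 1, whose −log10 q values were 4.72 and 2.02. When peaks below an enrichment of 3, or below a −log10 q of 5, were dropped, 0 of the 7 genes reached 20% in both replicates. The share of all coding genes that did so under these filters was not computed.

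**Figure D3:**
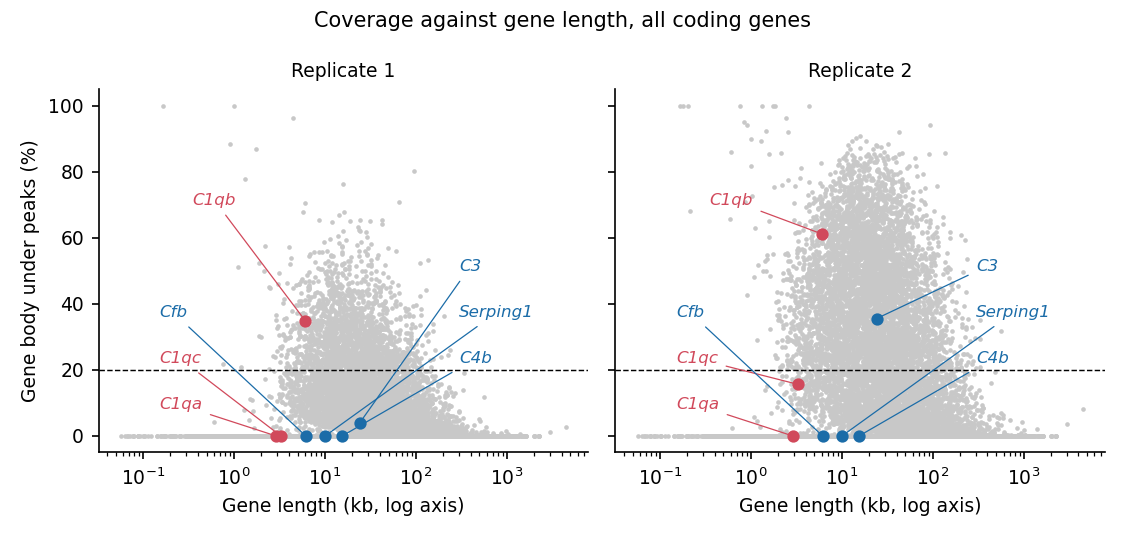
Percent of the gene body under peaks (y axis) against gene length in kb (x axis, log scale) for all 21924 coding genes (grey), with the C1q genes in red and the liver-type members in blue, 1 panel per replicate. C1qb lies high among genes near 6 kb in both panels, C3 lies inside the bulk of its size range, and C1qa and C1qc sit at the short end where most genes have no peak.

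The genes whose pattern along the body was most like that of C1qb, by Euclidean distance over 20 values (coverage in 10 bins in each replicate) among 6427 coding genes of similar length, were Fbxo6, Pdcl3 and Degs1, at distances of 53.1, 75.2 and 77.4 percentage points. Fbxo6 was 29.3% covered in replicate 1 and 63.9% in replicate 2. For C3, among 7930 genes, they were March7, Selplg and Mfsd14a, at 68.1, 68.3 and 68.5. Selplg, which encodes the selectin ligand PSGL-1 of leukocytes, was 5.07% and 36.8% covered. Because the distance used both replicates, a gap between them like that at C3 was built into the choice.

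Other genes of the pathway were divided by role. Of 48 further complement genes with a coding record, 4 were called marked in both replicates (8.33%, beside the 7.62% of all coding genes), 10 had a peak in both (20.8%, beside 28.8%), and 36 had none in any list. The share of all coding genes without a peak in any list was not computed. In the pooled list, the one with most such genes, 8522 of 21924 coding genes had a peak. When peaks below an enrichment of 3 were dropped, Cr1l and Itgb2 lost the call and C3ar1 and Lrp1 kept it, and when those below a −log10 q of 5 were dropped, C3ar1 alone kept it. The share of all coding genes that kept the call under these filters was not computed. Of 11 receptors and ligand-binding partners, 3 were marked: C3ar1, the receptor for the C3a fragment (39.3% in replicate 1 and 45.3% in replicate 2), Itgb2, the shared chain of complement receptors 3 and 4 (21.2% and 47.5%), and Lrp1, a large endocytic receptor (36.2% and 70.2%). The annotation gives no other coding gene over these 3. Itgam, the partner chain of Itgb2 in complement receptor 3, had 8.46% and 26.3%, and all of its covered bases also lie in the overlapping record Gm49368. The C5a receptor gene C5ar1 had 7.17% and 16.1%, and Cr2, a receptor of B cells, had no peak. Vsig4, a C3b receptor of resident tissue macrophages, and Itgax also had none.

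Of 8 membrane regulators and C1q-linked surface proteins 1 was marked, Cr1l, which encodes the rodent inhibitor of C3 convertases known as Crry (20.4% and 30.3%). That is 12.5% of the group, beside 7.62% of all coding genes, and a count of 1 does not set the group apart. Cd93 had 0% and 23.3%, and Cd46, a membrane cofactor gene, had no peak. Most coding genes had no peak at all, since 6377 of 21924 had one in replicate 1 and 8393 in replicate 2, and the plasma components are to be read against that. All 7 genes of the terminal pathway, C6 and C7 among them, had none in any list. Among the fluid-phase regulators, C4bp, whose product binds C4b and helps to inactivate it, and Cfi, which encodes the protease factor I, had none either. Of 13 initiators of the classical and lectin pathways only Masp2 had peaks (4.55% and 16.3%), and all of its covered bases in each replicate lay where it overlaps Tardbp. The partner proteases of C1q, encoded by C1ra, C1rb, C1s1 and C1s2, had none, though these are pairs of similar copies whose shared sequence was not measured. In the alternative pathway Cfp, which encodes properdin, a factor that white blood cells supply, had 5.51% and 14.7%, and Cfd had no peak.

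**Figure D4:**
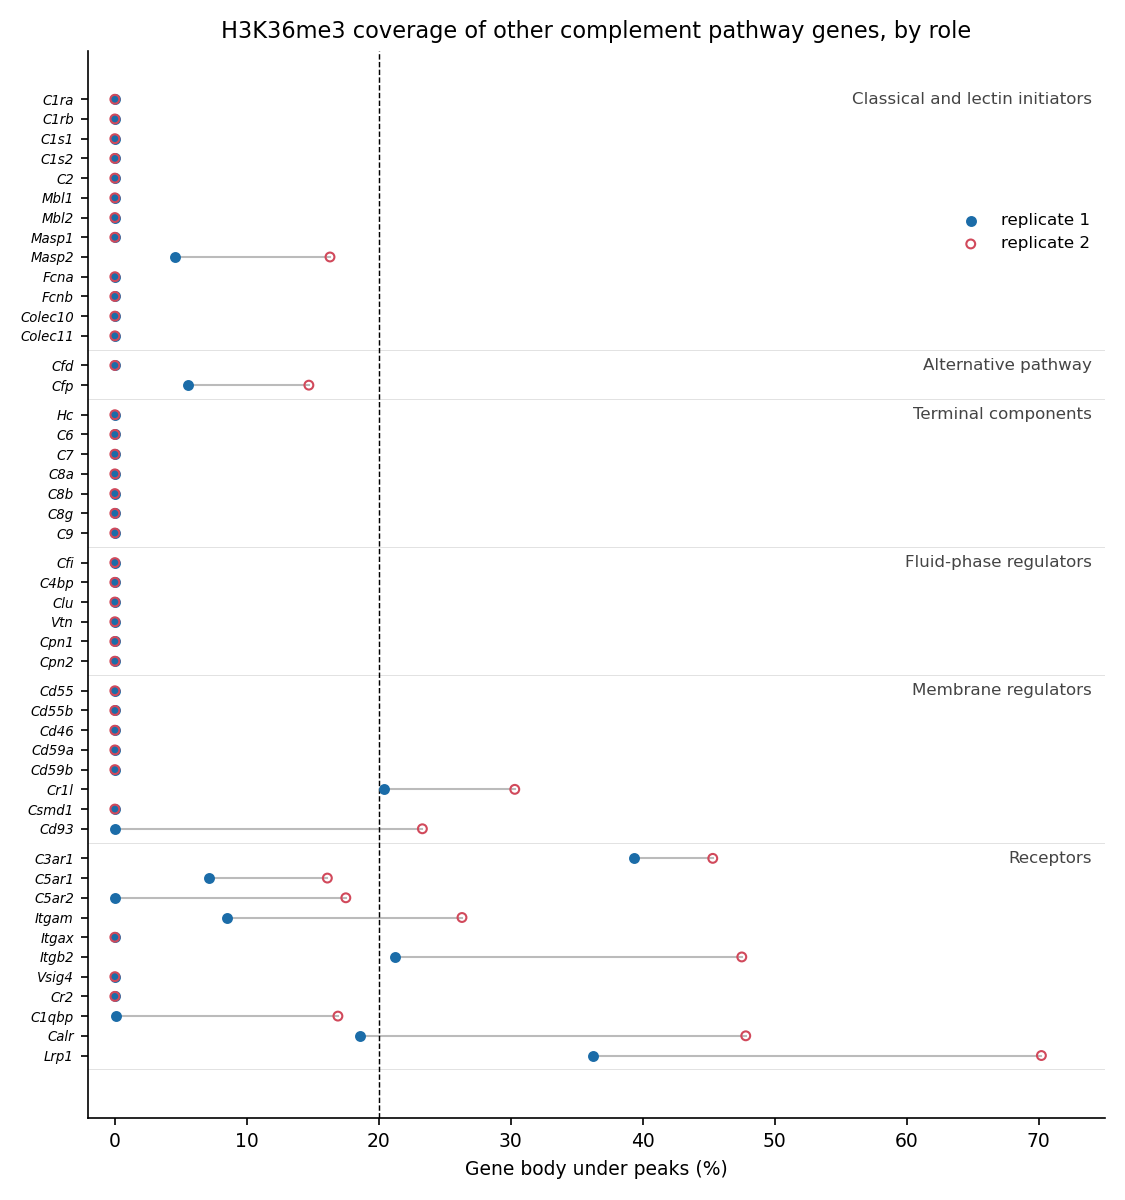
Percent of the gene body under peaks (x axis) in replicate 1 (filled) and replicate 2 (open) for other complement pathway genes grouped by role, with a dashed line at 20%. Coverage is found mainly in the receptor group, which also holds ligand-binding partners, with Lrp1 reaching 70.2%, while the terminal components all sit at 0.

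The labelled cell type was compared with marker genes. The marker lists were chosen with earlier results of these data known, so this is not an independent check. Of 12 macrophage markers 6 were called in both replicates, among them Csf1r (25% and 54.7%), where 7.62% of all coding genes were. A peak was present on 7 of the 12 in replicate 1, beside 6377 of 21924 coding genes. In replicate 2 it was present on 10 of the 12, beside 8393 of 21924. Of 11 hepatocyte markers with a coding record, 8 fibroblast markers and 8 dendritic cell markers, 0 had a peak in either replicate, and of 8 neutrophil markers Csf3r alone did (22.8% and 68.2%). Since most coding genes had no peak, its absence on lists this short shows little about the cell type. Replicate 1 held 32098 peaks over 28.5 Mb and replicate 2 held 58505 over 79.4 Mb. Depth is unknown for both replicates because the lists hold no read counts, and its part in the differences between them was not tested.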

How the data were processed

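Per the readme files deposited with them, the authors made 4 narrowPeak lists on mm10: 1 for each replicate, kept when found in pseudoreplicates, a pooled list called on both, and a replicated list. The software for alignment and peak calling is not given in the sources used here. For every peak the authors deposited a fold enrichment ratio over the caller's background, a −log10 p and a −log10 q-value. The deposited display score equals 10 times the −log10 p rounded down (0 exceptions). These values were used within a list only, to rank, filter or describe its peaks.

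For the longest coding record of each symbol, the percent of the body under merged peaks was computed. The call of a marked gene required at least 20% in each replicate. Uniqueness was judged by the share of 31, 50 or 100-base words found at another place on the reference chromosomes, on either strand. A low share means unique sequence. C4b and C4a were aligned with MAFFT 7.526. Promoter windows of 300 bases from the RefSeq table (GRCm38.p6) matched 3 of the 7 genes and held 0 peak bases in all 4 lists.

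The members and lists were chosen with earlier results of these data known. The rule for named genes took the members, pathway genes called in both replicates, the 2 highest and the lowest of each role, coding genes within 10 kb of a member, and the 3 genes most alike in profile. Other genes named were chosen after their values were seen. Some genes of the lists are not reported here by name. C4a has no coding record, nor has 1 listed hepatocyte symbol. Computations used Python 3.11.15, numpy 2.4.6 and pandas 2.3.3, and the coverage step was tested on simulated data.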

Additional observations from a re-analysis of the deposited data

How the results depend on the processing

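No alternative gave C1qa, C4b or Serping1 a peak, and C1qb had a mean covered share between 19.9% and 86.7%. The lowest share came with a −log10 q of at least 5, which left no replicate 1 peak on C1qb. The highest counted exons only, beside 48.0% for the whole body in the main setting. The C1q median minus the liver-type median reversed to -4.81 percentage points with the authors' pooled list, to -4.81 with their replicated list, and to -0.826 when 2 kb past each gene end was added, where the liver-type median was 4.81%, 4.81% and 5.67%. By means over genes that group had 4.94%. Leaving out 1 replicate gave differences from 0 to 15.6. The number of the 7 genes at 20% was 0 with an enrichment of at least 3, 0 with a −log10 q of at least 5, and 0 at a limit of 50%. It was 2 (C1qb and C3) for any peak, 2 in the pooled list and 2 in the replicated list, and 1 to 2 when 1 replicate was left out. For the other pathway genes the count was 2 with an enrichment of at least 3, 1 (C3ar1) with a −log10 q of at least 5, 0 at 50%, 10 for any peak, 7 in the pooled list, 7 in the replicated list, and 4 to 7 when 1 replicate was left out. Filters on peaks leave fewer covered bases by construction. With the 2 kb added, Cfb went from 0% to 11.6% covered, through replicate peaks that lay wholly inside Nelfe. The cause of the remaining shifts was not tested. No paired analysis was possible because there is 1 group. Short genes and unknown depth limit what an absent peak can show.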
